A study of Rattus norvegicus with 8 samples.

Results

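The miR-34 and miR-449a miRNAs of the rat were followed in the prostatic urethra after laser injury. They were taken by name, as every miRNA of the array whose name begins with rno-miR-34a-, rno-miR-34b-, rno-miR-34c- or rno-miR-449a-, which gave 8 of the 758 rat miRNAs measured. Male Sprague Dawley rats, 10 to 12 months old, were assigned to a TULP group or a sham group of 4 animals each. In the TULP group a thulium laser, passed through an incised bladder, vaporized the epithelium of the prostatic urethra to simulate transurethral laser prostatectomy (TULP). Sham animals had a midline abdominal incision only, so the bladder incision and the passage of the instrument differed between the groups as well as the laser. Wound tissue, or urethra from the same location, was collected 5 days after surgery, and the RNA of each animal was hybridized to 1 single-dye array. Groups were taken from the sample titles. For the TULP arrays, the source and the treatment entered with each animal name trauma tissue, as the titles do. Their descriptions name sham surgery instead, which the files do not settle. Each difference below thus rests on the titles and these matching entries.

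The miR-34 family is best known for its link to p53, the transcription factor that halts the cell cycle or triggers apoptosis after DNA damage. p53 binds upstream of the miR-34a gene and of the shared miR-34b and miR-34c gene, and the mature miRNAs repress messenger RNAs of cell cycle and survival factors such as Cdk6, Ccne2, Met and Bcl2. miR-34a is found in many tissues, whereas miR-34b, miR-34c and miR-449 are abundant in multiciliated epithelium, such as that of the airway, and in testis, where they take part in the making of motile cilia. A miRNA recognizes its targets mainly through its seed, so members with the same seed can act on the same messenger RNAs.

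The mature sequences are given first because the seed joins these miRNAs and the bases after it set apart their probes. In the sequences from RefSeq (build GRCr8), in which all 8 members were matched, the seed of bases 2 to 8 is in capitals.
rno-miR-34a-5p: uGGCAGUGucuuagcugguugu
rno-miR-34b-5p: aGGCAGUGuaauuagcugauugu
rno-miR-34c-5p: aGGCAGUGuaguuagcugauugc
rno-miR-449a-5p: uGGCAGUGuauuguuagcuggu
rno-miR-449c-5p: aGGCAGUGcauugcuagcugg
The seed GGCAGUG stood in 5 rat mature miRNAs of the table, and all 5 were on the array. Of them 4, the 5p arms of miR-34a, miR-34b, miR-34c and miR-449a, are members, and miR-449c-5p is the other. The 3p arms carry other seeds: AUCAGCA in miR-34a-3p, AUCACUA in both miR-34b-3p and miR-34c-3p, and AGCUAAC in miR-449a-3p. Counted from the 5′ end, miR-449a-5p held the same base as miR-34a-5p at 15 positions, miR-449c-5p at 12, and miR-34b-5p and miR-34c-5p at 11 each.

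The genes lie on 3 chromosomes of GRCr8. Mir34a is at chr5:165815952-165816053 on the plus strand, within the span of the lncRNA LOC103692514. Mir34b at chr8:60306609-60306692 and Mir34c at chr8:60306091-60306167 are on the minus strand with 441 bases between them, and both overlap the span of the protein-coding gene Hoatz. Mir449a is at chr2:46403910-46404000 on the plus strand, within the span of the lncRNA LOC134485839 and 1436 bases from Mir449c. Positions within exons or introns were not analysed here. The precursor of miR-34a is shown because its arms differed in detection, with the 5p arm as the first stretch in capitals and the 3p arm as the second.
Mir34a hairpin: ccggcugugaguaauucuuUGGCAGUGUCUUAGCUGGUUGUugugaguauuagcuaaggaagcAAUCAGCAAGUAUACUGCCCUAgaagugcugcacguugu

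miR-34a-5p was detected on all 8 arrays, and the other 7 members were detected on none. A miRNA counts as detected where the total signal of at least 1 of its probes, an intensity on a linear scale with background subtracted, exceeds 3 times its error. The 7 undetected members were read by 16 probes, and none of their 128 readings passed. Of these readings 77 (60.2%) were below 0, and the highest reached 2.49 times its error. The detection limits of the single readings lay between 1.68 and 4.27 signal units, so levels below them could not be measured in either group, and no fold is given for these 7. In the deposited table the same 7 members sat at the lowest value on every array. miR-449c-5p, which shares the seed, was detected on no array either, with readings of its 4 probes from -1.42 to 0.37.

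**Figure D1:**
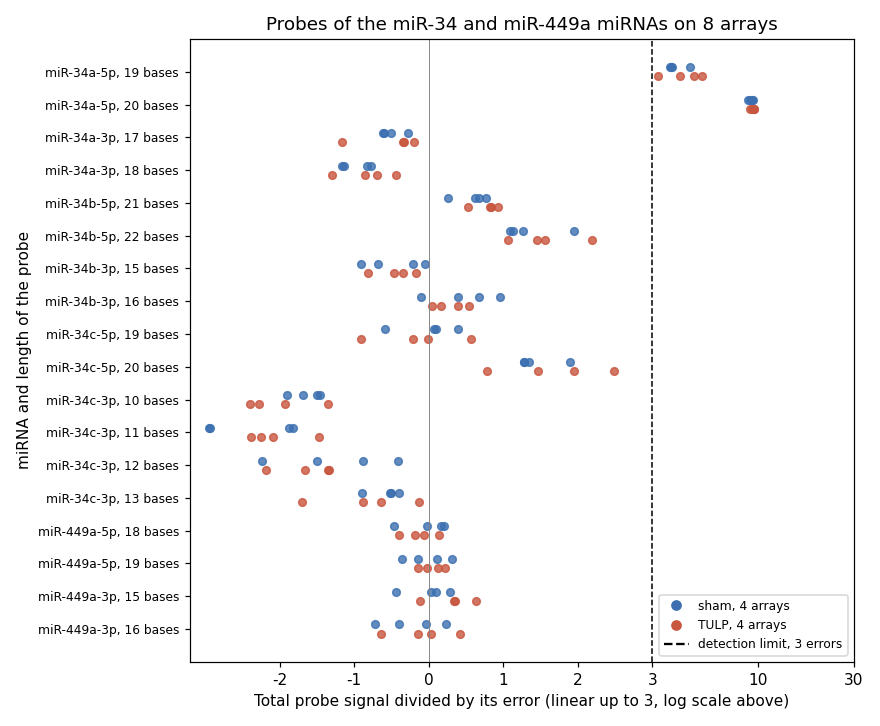
Each row is a probe of a miR-34 or miR-449a miRNA, named by its miRNA and length, and each point is an array (sham blue, TULP red, 4 each). The horizontal axis is total probe signal divided by its error, linear up to 3 and logarithmic above, with the detection limit dashed at 3; both probes of miR-34a-5p lie to its right on all 8 arrays, and the 16 probes of the other 7 members stay left of it.

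The probes for the detected member, from the array files, pair with the 3′ end of miR-34a-5p and differ by a single base, in capitals.
miR-34a-5p probe of 19 bases: acaaccagctaagacactg
miR-34a-5p probe of 20 bases: acaaccagctaagacactgC
Both are fully paired with miR-34a-5p. Without gaps, the longer probe can pair with at most 13 bases of miR-449a-5p, in runs of at most 9, and with 10 or 11 bases of the other same-seed miRNAs, in runs of at most 7. Cross-hybridization was not measured.

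Among the undetected members, some probes for the 5p arms of miR-34b and miR-34c read above 0 on every array. The 22-base probe of miR-34b-5p read 1.24, 1.48, 2.30 and 1.57 in the sham group and 1.51, 2.93, 2.12 and 1.85 in the TULP group. The 20-base probe of miR-34c-5p read 1.53, 2.53, 1.48 and 1.61 in the sham group and 1.12, 3.35, 2.65 and 1.88 in the TULP group. In both cases the groups overlapped and every reading was below its own detection limit. Without gaps, this miR-34b-5p probe can pair with 20 bases of miR-34c-5p, and this miR-34c-5p probe with 18 bases of miR-34b-5p. With miR-34a-5p they can pair at 12 and 10 bases. Which miRNA gave these readings was not tested. These 2 probes and the 21-base probe of miR-34b-5p, which read 0.289 to 1.18, were above 0 on all 8 arrays, as were 228 (15.3%) of the 1489 probes detected on no array. Being above 0 throughout was thus not particular to these miRNAs. Their rank by mean signal among the 1489 follows in part from their choice as probes above 0 throughout. The 22-base and 21-base probes of miR-34b-5p exceeded 98.2% and 90.7% of the 1489, and the 20-base probe of miR-34c-5p exceeded 98.6%. The other probes of the undetected members exceeded 11.0% to 83.4%. The 19-base probe of miR-34c-5p was not above 0 throughout, with readings from -1.28 to 0.75.

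No probe of the remaining members was above 0 on all 8 arrays. The 16-base probe of miR-34b-3p was above 0 on 7 of them, with readings from -0.12 to 1.20. Both probes of miR-34a-3p, which comes from the same hairpin as the detected miR-34a-5p, were below 0 on all 8 arrays, as were the 4 probes of miR-34c-3p and the 15-base probe of miR-34b-3p. The 2 probes of miR-449a-5p ran from -0.53 to 0.36, and those of miR-449a-3p from -0.90 to 0.83.

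miR-34a-5p was up-regulated after TULP. After quantile normalization its log2 signal was 4.90, 4.96, 5.13 and 4.82 in sham replicates 1 to 4, and 5.26, 6.16, 5.94 and 6.24 in TULP replicates 1 to 4. Every TULP array was above every sham array, with TULP replicate 1 closest to the sham group. The means were 4.95 ± 0.13 (SD, n = 4) and 5.90 ± 0.44 (SD, n = 4). The change was 0.95 on the log2 scale (SE 0.22), a 1.93-fold rise, with an adjusted p of 0.0161 from limma, fitted to the 151 miRNAs that were detected on 4 or more arrays. The rise passed the adjusted p but stayed below the 2-fold size that the call of differential expression also required. Among the 151 miRNAs the change was the 13th highest.

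That a miRNA changed was common in this comparison. Of the 151 miRNAs tested, 46 (30.5%) passed the adjusted p, of which 21 (13.9% of those tested) were higher and 25 (16.6%) lower in the TULP group, and 8 (5.30%) were higher by more than 2-fold. The groups did not overlap for 44 (29.1%). miR-34a-5p is thus 1 of 21 that rose, from a family of which it alone could be tested.

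**Figure D2:**
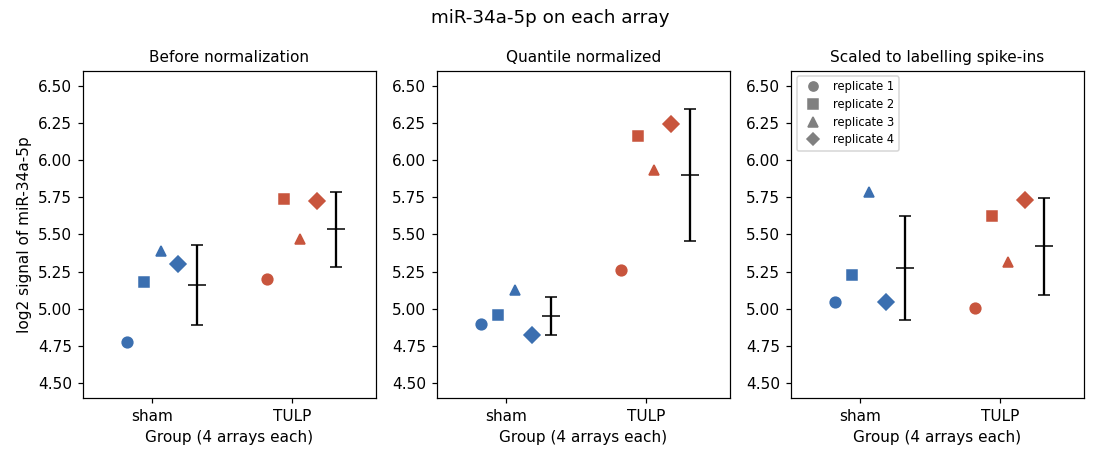
Log2 signal of miR-34a-5p on each array before normalization, after quantile normalization and scaled to the labelling spike-ins, on the same vertical axis, which does not start at 0; marker shape gives the replicate number and the black bar the mean ± SD of 4 arrays. Of the 3 panels, the groups are apart in the quantile normalized one, where the means are 4.95 and 5.90.

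The size of the rise depended on how arrays were scaled. Before normalization the signal of miR-34a-5p was 27.4, 36.3, 41.9 and 39.4 in the sham group and 36.8, 53.3, 44.3 and 52.98 in the TULP group. TULP replicate 1 lay within the sham range, so the groups overlapped. On the log2 scale this was a change of 0.37 (SE 0.23), with a limma adjusted p of 0.204. Scaled to the pair of labelling spike-ins, which are foreign RNAs put into each labelling reaction in the same quantity, the change was 0.14 (SE 0.24), with an adjusted p of 0.642. Spike-in log2 signal was 8.17, 8.40, 8.04 and 8.69 in the sham group and 8.63, 8.55, 8.59 and 8.44 in the TULP group.

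The summed signal of all rat miRNAs differed between the groups at the same time. Its log2 was 14.36 to 15.19 in the sham group and 14.04 to 14.25 in the TULP group. As a share of this sum, miR-34a-5p made up 0.130%, 0.143%, 0.143% and 0.105% in the sham group and 0.189%, 0.304%, 0.264% and 0.304% in the TULP group, which did not overlap. The median change of all 151 miRNAs moved from -0.02 after quantile normalization to -0.55 without it and -0.78 with the spike-ins. Relative to that median, the change of miR-34a-5p was 0.97, 0.93 and 0.93 in the same order. The values without normalization and with the spike-ins are equal by construction, since spike-in scaling shifts all miRNAs of an array alike. With the stored total per miRNA the change relative to the median was 0.58, and with normexp background correction 0.31. The rise of miR-34a-5p is thus a rise relative to the other miRNAs measured, and a rise on the spike-in scale did not pass the test.

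**Figure D3:**
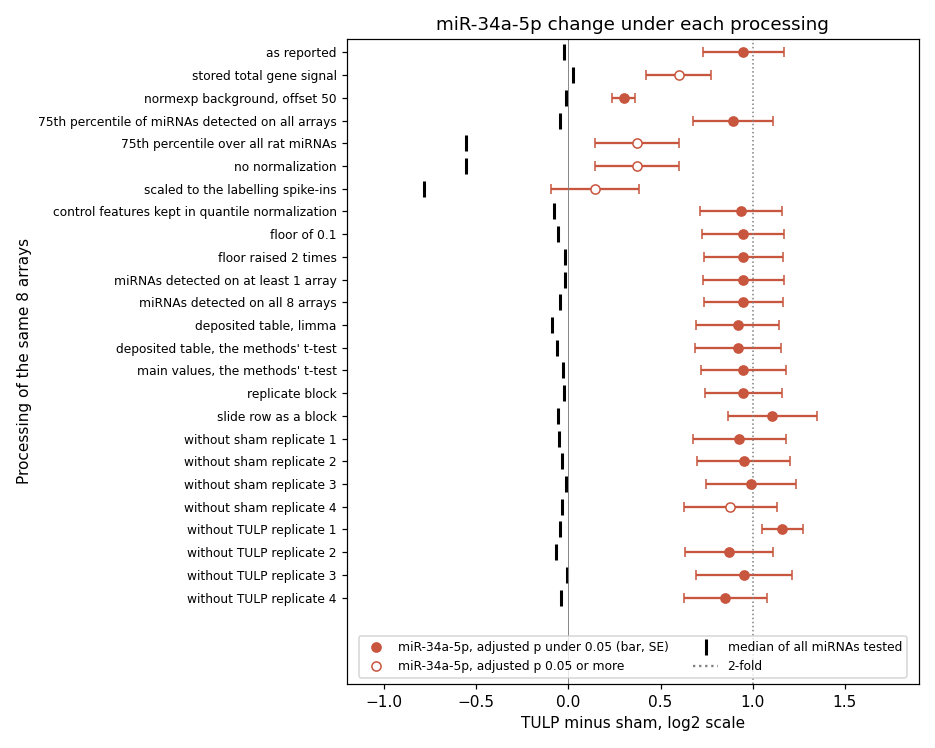
Change of miR-34a-5p (TULP minus sham, log2 scale, bar SE) as reported and under 24 other ways of processing the 8 arrays; filled points have an adjusted p under 0.05, black ticks mark the median change of all miRNAs tested, and the dotted line is 2-fold. The point stays to the right of 0 under each, from 0.14 to 1.16. Where point and black tick both move left, their distance is kept by construction, since 1 factor per array shifts both alike.

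Both probes of miR-34a-5p had a higher mean in the TULP group. The longer probe read 22.9, 31.0, 35.8 and 34.5 in the sham group and 32.0, 45.2, 38.3 and 46.0 in the TULP group. The shorter probe was dimmer and closer to its detection limit, at 4.52, 5.30, 6.03 and 4.89 in the sham group and 4.78, 8.16, 6.01 and 7.005 in the TULP group. For each probe the groups overlapped before normalization, with log2 changes of 0.39 for the longer and 0.30 for the shorter. The longer probe was 5.98 ± 0.82 times (SD, n = 4) as bright as the shorter in the sham group and 6.30 ± 0.52 times (SD, n = 4) in the TULP group, and this ratio did not pass a two-sided exact permutation test (p = 0.486, smallest possible 0.0286). Within an array, the 8 spots of the longer probe varied by 4.06% to 9.14% (SD over mean) and those of the shorter by 8.14% to 29.1%.

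The arrays lay in 2 rows of 1 slide, which the groups did not share equally. Within the first row, 3 TULP arrays were above the 1 sham array by 0.97 on the log2 scale, and within the second the 1 TULP array was above the 3 sham arrays by 1.25. With the slide row as a block the change was 1.11 (SE 0.24, limma adjusted p = 0.0272). Without TULP replicate 1 it was 1.16 (SE 0.11, adjusted p = 0.00111). In these 2 fits it exceeded 2-fold. Without sham replicate 4 it was 0.88 (SE 0.25), and the adjusted p of 0.0532 missed the threshold. The spike-in signal also followed the rows, at 8.55 to 8.69 on the log2 scale in the first and 8.04 to 8.44 in the second. On the spike-in scale, row and group can therefore not be fully told apart, and the part of the row was not tested.

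Some markers of leukocytes rose with miR-34a-5p. Of the 7 miRNAs on a list of leukocyte markers, 6 could be tested and 3 rose, namely miR-223-3p, miR-142-3p and miR-146b-5p, against 13.9% of all miRNAs tested. miR-142-3p was detected on 2 of the 4 sham arrays, so its rise rests in part on values set to the floor. miR-155-5p (change 0.89, limma adjusted p = 0.236) and miR-146a-5p (0.39, adjusted p = 0.0995) did not pass. miR-142-5p was detected on no array. miR-150-5p, which is abundant in lymphocytes, went against these 3 at 4.22, 4.41, 4.14 and 5.10 in the sham group and 4.03, 3.79, 3.91 and 3.79 in the TULP group, where every value was below the sham group. Its change of -0.59 (SE 0.22) had an adjusted p of 0.0737, and with the slide row as a block it passed at -0.83 (adjusted p = 0.0272). With the stored total per miRNA its direction reversed, at 0.40 (SE 0.48, limma adjusted p = 0.596). The log2 of the summed normalized signal of the list was 5.98 to 6.58 in the sham group and 7.30 to 7.98 in the TULP group, without overlap. miR-223-3p, which is abundant in neutrophils, was 3.98, 4.03, 3.98 and 4.03 in the sham group and 5.35, 6.56, 6.50 and 6.02 in the TULP group. In it as in miR-34a-5p, TULP replicate 1 was the lowest of the TULP arrays. In bulk tissue, a change in the number of cells of a type and a change in RNA per cell cannot be told apart, and the part of leukocytes in the rise of miR-34a-5p was not tested.

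Epithelial markers were present in both groups. None of the 9 on the list was undetected throughout, 8 could be tested, and with limma 0 passed the adjusted p while 3, miR-200a-3p, miR-200c-3p and miR-375-3p, had an unadjusted p under 0.05. The log2 of their summed signal was 8.96 to 9.42 in the sham group and 8.62 to 9.90 in the TULP group, with the highest value in TULP replicate 1. miR-375-3p was detected on all 4 sham arrays and, of the TULP arrays, on replicate 1 alone, at 4.05. TULP replicate 1 thus had the lowest miR-34a-5p and the highest epithelial sum of its group. Without it 5 of the 8 epithelial miRNAs passed, each lower in the TULP group, where 34 of 149 miRNAs (22.8%) did so in that fit. They were miR-183-5p, miR-200a-3p, miR-200c-3p, miR-205 and miR-375-3p. TULP replicate 1 was singled out by its epithelial sum, so leaving it out lowers the epithelial signal of the TULP group by construction. Without TULP replicate 2, 3 or 4, 0 of the 8 passed, and 0 had an unadjusted limma p under 0.05. The smooth muscle markers miR-143-3p and miR-145-5p were detected on all 8 arrays, with summed log2 signals of 9.34 to 9.86 and 9.31 to 10.36, and 0 of 2 passed. Of the 5 striated muscle markers, 4 could be tested and miR-1-3p, miR-133a-3p and miR-133b-3p fell, against 16.6% of all miRNAs tested, with summed log2 signals of 11.98 to 12.47 in the sham group and 11.37 to 12.18 in the TULP group, and miR-499-5p was detected nowhere. Of these 3, miR-133a-3p alone still passed with the slide row as a block, and also without sham replicate 1 or 3. With the stored total per miRNA, miR-1-3p alone passed. The other tested marker, miR-206-3p, had a change of 0.25 (SE 0.45) and did not pass (limma adjusted p = 0.795). Without TULP replicate 1 it passed as higher in the TULP group, and the same 3 as lower. In that fit 57 of 149 miRNAs (38.3%) passed. The part of these tissues in the rise of miR-34a-5p was not tested.

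The miRNAs whose normalized log2 signal followed that of miR-34a-5p most closely over the 8 arrays were miR-20a-5p (Pearson's r = 0.95), miR-223-3p (0.93), miR-142-3p (0.92) and miR-20b-5p (0.91). All 8 points of each share their arrays and normalization with miR-34a-5p, and the step between the groups is part of each r. miR-20a-5p, from a miRNA cluster known for driving proliferation, was 3.95, 4.54, 4.52 and 4.43 in the sham group and 4.90, 5.61, 5.68 and 5.61 in the TULP group. Its lowest sham and lowest TULP values were those of replicate 1, and its groups did not overlap. It rose by 1.08 on the log2 scale (SE 0.22, limma adjusted p = 0.0124), and scaled to the spike-ins its change was 0.28 (SE 0.24, adjusted p = 0.338). miR-142-3p was detected on 2 sham and 4 TULP arrays. miR-20b-5p was detected on 2 sham and 3 TULP arrays, and its change of 1.01 (SE 0.48) had an adjusted p of 0.153. The r of miR-142-3p and that of miR-20b-5p thus rest in part on values set to the floor. Before normalization r was 0.95 for miR-20a-5p, 0.69 for miR-223-3p, 0.70 for miR-142-3p and 0.80 for miR-20b-5p. On the spike-in scale r was 0.90, 0.38, 0.73 and 0.88 in that order, so the likeness of miR-223-3p was much lower there. For miR-142-3p and miR-20b-5p, arrays without detection entered the r before normalization at the value given to undetected miRNAs. That value lies below the floor used on the normalized and spike-in scales. For these miRNAs, r before normalization thus differs from the other r in the floor as well as in the scaling.

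None of the other miRNAs linked to p53 that could be tested passed the test. The list held 11 miRNAs reported to be induced, processed or repressed with p53, so they need not change in 1 direction. Of these 7 could be tested, and with limma 0 passed the adjusted p, while 1, miR-200c-3p, had an unadjusted p under 0.05. Over all miRNAs tested 30.5% passed, so with 7 members a count of 0 does not set the list apart. miR-192-5p, miR-194-5p and miR-215, the cluster members that p53 induces in other tissues, were detected on no array, and miR-203a-3p was detected on TULP replicate 2 alone. The median change of the 7 was -0.24, and that of all 151 tested was -0.02. The values ran from 0.24 (SE 0.12, adjusted p = 0.153) for miR-16-5p to -1.46 (SE 0.54, adjusted p = 0.0753) for miR-200c-3p.

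miR-200c-3p was below the sham range on 3 of the 4 TULP arrays. It was 4.69, 4.61, 4.47 and 4.22 in the sham group and 4.71, 2.86, 2.56 and 2.00 in the TULP group, so TULP replicate 1 was at the sham level and the groups overlapped. Without TULP replicate 1, 2 of the 7 p53-linked miRNAs passed, miR-16-5p as higher and miR-200c-3p as lower in the TULP group, where 57 of 149 miRNAs (38.3%) passed in that fit. The list shares miR-200c-3p, miR-141-3p and miR-203a-3p with the epithelial markers and miR-143-3p and miR-145-5p with the smooth muscle markers. With spike-in scaling all 7 tested members passed, each lower in the TULP group, as did 82 of the 151 miRNAs (54.3%), with a median of -0.98 beside the -0.78 of all 151 miRNAs.

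**Figure D4:**
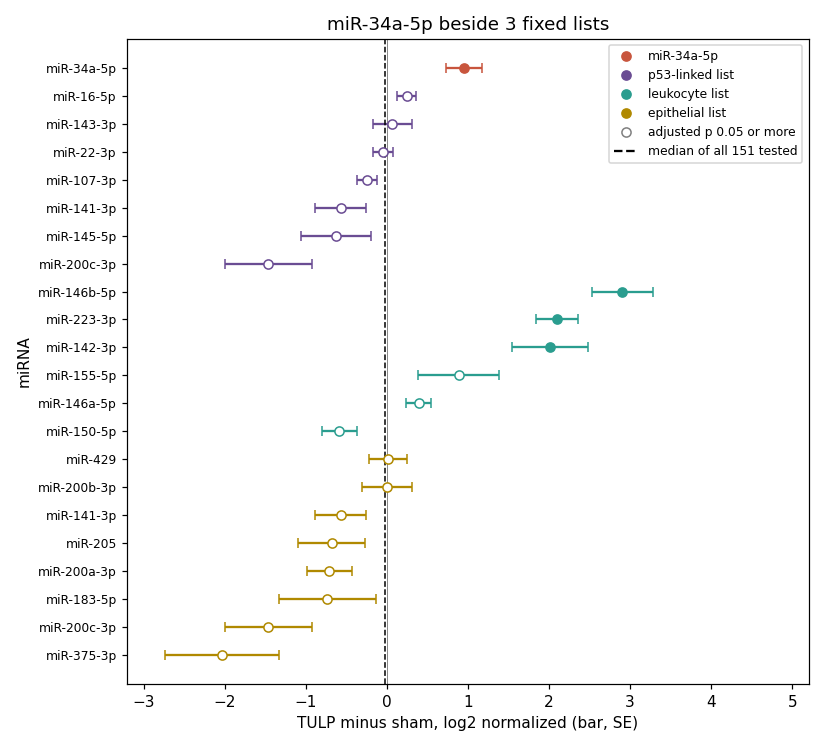
Change of each tested miRNA (TULP minus sham, log2 normalized signal, bar SE) for miR-34a-5p and the p53-linked, leukocyte and epithelial lists; filled points passed the adjusted p and the dashed line is the median of all 151 miRNAs tested. miR-34a-5p lies at 0.95, above each of the 7 p53-linked miRNAs, of which the highest is at 0.24, and below the 3 leukocyte miRNAs that rose.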

How the data were processed

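The authors deposited 1 scanner file per array, read per the file headers with Agilent Feature Extraction 10.7.1.1, with a total probe intensity, background subtracted and not normalized, and a log2 table whose columns hold the same sorted values, as quantile normalization gives. Each miRNA's signal was the sum of its probes above 3 times their error, or 0.1, which gave the deposited detection calls with 0 mismatches. Signals were quantile normalized over 758 rat miRNAs, raised to a floor of 1.94 and converted to log2. The 151 miRNAs detected on at least 4 of 8 arrays entered a fit by group in limma 3.58.1 (R 4.3.3), with Benjamini-Hochberg adjustment. A call needed an adjusted p under 0.05 and more than 2-fold. The fit was tested on simulated data without undetected values and with changes larger than that of miR-34a-5p. That test therefore does not gauge how well a change of its size is found. No spot was saturated. The number of arrays limits the precision.

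The members, lists and tests were chosen with earlier results of these data known. The miRNAs named were all members, the array miRNAs with the seed of miR-34a-5p, the 4 tested miRNAs with the highest r to it, and the fixed lists, with values for those that passed. Other list members given with values were chosen after these were seen. The planned tests of miR-34c-5p could not be run, since it was detected on no array. Alternatives changed signal, background, scaling, floor, filter, test, blocks and arrays. Sequences and positions are from RefSeq tables of GRCr8, and probe positions in the files (rn4) were not used.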

Additional observations from a re-analysis of the deposited data

Results flagged for a closer look

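Of 52 groups of 4 arrays examined, over the values of the miR-34 and miR-449a miRNAs and the summed lists, 3 held a value far from the other 3, where chance gives about 1 in 20. The 20-base probe of miR-34c-5p read 2.53 on sham replicate 2, above the other sham arrays and below its detection limit. The 17-base probe of miR-34a-3p read -1.65 on TULP replicate 1. The summed log2 signal of the striated muscle markers was 11.98 on sham replicate 2, below the other sham arrays.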

How the results depend on the processing

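The change of miR-34a-5p kept its direction under 24 other ways of processing and its side of the adjusted p under 19. It missed the threshold with the stored total per miRNA (0.60, adjusted p = 0.0501), without normalization and with the 75th percentile over all rat miRNAs (0.37 in each, adjusted p = 0.204, since that percentile was the same on each array), with the labelling spike-ins (0.14, adjusted p = 0.642), and without sham replicate 4. Leaving out 1 array at a time gave 0.85 to 1.16. With the other floors, the other detection filters, the t-test on the same values and the replicate block, the change was 0.95 by construction. Those settings could alter its adjusted p and not its direction. With normexp background correction the change fell to 0.30 with an adjusted p of 0.00985. On the deposited table it was 0.92, with an adjusted p of 0.0209 in limma and 0.0388 by the methods' t-test, which had an unadjusted p of 0.00776. By that test 17 miRNAs passed the methods' threshold and 13 after Benjamini-Hochberg, none of them miR-34a-5p, whose fold was 1.89. Within slide rows, chosen after seeing the data, it was 0.97 and 1.25.

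Replicate numbers did not pair the arrays: same-numbered arrays correlated at 0.13, -0.10, 0.27 and -0.10, and 2 of 8 correlated best with their own number. With the replicate block the change was 0.95 with an adjusted p of 0.0393, and 37 miRNAs passed in place of 46. The 14 miRNAs called, 8 of them higher, became 34 (5 higher) without normalization or with the percentile over all, 53 (5 higher) with spike-ins, 1 with normexp, 8 with detection on all arrays and 9 without TULP replicate 3. The epithelial list, with 0 of 8 passing, had 4 lower without normalization, 6 lower with spike-ins, 2 lower with normexp or the percentile of miRNAs detected on all arrays, and 1 lower with the stored total. The striated muscle list, with 3 of 4 lower, had 1 lower with the stored total, miR-1-3p. Without TULP replicate 1 it had 3 lower and miR-206-3p higher. The leukocyte list, with 3 higher, had 3 higher and miR-150-5p lower without normalization, with spike-ins and with the slide row block. With the stored total miR-150-5p went the other way (0.40, limma adjusted p = 0.596). miR-142-3p did not pass on the deposited table, with the floor of 0.1, or without sham replicate 4 or TULP replicate 2. The smooth muscle list had 2 of 2 lower with spike-ins. The p53-linked list, with 0 of 7 passing, had 2 lower without normalization and 7 lower with spike-ins. It had 2 with normexp and 2 without TULP replicate 1 (1 higher and 1 lower each), 1 lower with the 75th percentile of miRNAs detected on all arrays and 1 lower without TULP replicate 2. The tests of miR-34c-5p and of its difference from miR-34a-5p were not run, as it was detected nowhere.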
